A study of Mus musculus with 2 samples.

Results

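Malat1-rich droplets with fewer than 10 Rpe65 UMIs and limited Dcn, Pmel and smooth muscle genes made up 556 of the 35627 kept cells. They came from a single-cell RNA sequencing study of the mouse retinal pigment epithelium (RPE), the pigmented monolayer between the photoreceptors and the choroid. The study compared control mice with mice given doxorubicin (Dox), a chemotherapy drug that damages DNA, as a model of RPE senescence. All mice were male C57BL/6J of 3 months, eyes of 5 mice were pooled per library, and each condition had 1 library, collected 7 days after a 1 µl injection under the retina, with PBS in control mice and 100 ng/µl Dox in Dox mice. The retina was removed and the remaining RPE, choroid and sclera were dissociated together with papain, so that the libraries also held fibroblasts, melanocytes, vessel cells and immune cells. With 1 library per condition no test between conditions was possible, and treatment, pool of mice and library cannot be told apart.

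The droplets were chosen by their measured values. A kept cell had more than 500 UMIs (unique molecular identifiers, each standing for 1 captured RNA molecule), 200 to 6000 genes and a mitochondrial share under 0.2. A member had Malat1 at 100000 CPM or more (UMIs of the gene per 1000000 UMIs of the cell), fewer than 10 Rpe65 UMIs, Dcn under 2000 CPM, Pmel under 3000 CPM, and Acta2, Tagln and Myh11 together under 10000 CPM. These limits act on genes of RPE cells (Rpe65, the visual cycle isomerase), fibroblasts (Dcn, decorin), melanocytes (Pmel, a melanosome matrix protein) and smooth muscle cells. Levels of these 6 genes and of Malat1 in the members are therefore a description of the choice. Because the members were selected on counts, and conditions were not replicated, every comparison below is a description with no test. Intervals are exact 95% intervals and cover counting error only.

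Malat1 and Neat1 are long non-coding RNAs (lncRNAs) that stay in the nucleus, where they mark nuclear speckles and paraspeckles, the bodies around which splicing factors gather. Messenger RNAs for ribosomal proteins and housekeeping enzymes, by contrast, are found mostly in the cytoplasm. A droplet that holds a nucleus or a cell with a torn membrane is known to yield few UMIs and a large share of nuclear RNA, whichever cell type it came from. Marker genes of that cell type are then read at reduced counts over a background of RNA that floats free in the suspension.

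The control library held 306 members among 20189 kept cells, 1.52% (1.35 to 1.69, Clopper-Pearson). The Dox library held 250 among 15438, 1.62% (1.43 to 1.83). The intervals of the libraries overlapped. Malat1-rich cells of any kind numbered 763 in the control and 478 in the Dox library, so that members were 40.1% and 52.3% of them. Of the Malat1-rich cells, 101 control and 151 Dox cells were over the Rpe65 limit, 71 and 34 over the Dcn limit, 275 and 40 over the Pmel limit, and 19 and 12 over the limit on the muscle genes, with 9 cells in each library over more than 1 limit. Members held 567000 of 115785741 kept UMIs in the control and 513522 of 99703511 in the Dox library, 0.49% and 0.515%. The libraries had 441 barcodes in common. No member shared its barcode with a member of the other library, and 15 members had a barcode that was also deposited in the other library.

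No gap separated members from the cells below the Malat1 limit. Among cells that passed the other limits, 21 control and 18 Dox cells lay between 90000 and 100000 CPM of Malat1, and 29 and 25 lay between 100000 and 110000 CPM. The median share of UMIs from ribosomal protein genes fell across this scale, from 12.8% below 10000 CPM to 5.58% between 20000 and 50000, 3.61% just under the limit, 3.04% just over it and 1.25% above 300000 CPM in the control library. In the Dox library it went from 11.5% to 4.55%, 3.25%, 2.17% and 1.02% over the same ranges. For Rpe65, 17 control and 29 Dox members had 8 or 9 UMIs, and 11 and 14 Malat1-rich cells had 10 or 11. The Pmel limit had 44 control and 13 Dox droplets just inside, between 2400 and 3000 CPM, and 41 and 7 just outside, between 3000 and 3600 CPM. Just inside the Dcn limit, between 1600 and 2000 CPM, lay 18 and 12 droplets, and 10 and 4 lay between 2000 and 2400. For the muscle genes, 9 and 4 droplets lay between 8000 and 10000 CPM and 6 and 2 between 10000 and 12000. Each limit thus ran through a continuous range of values.

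**Figure D1:**
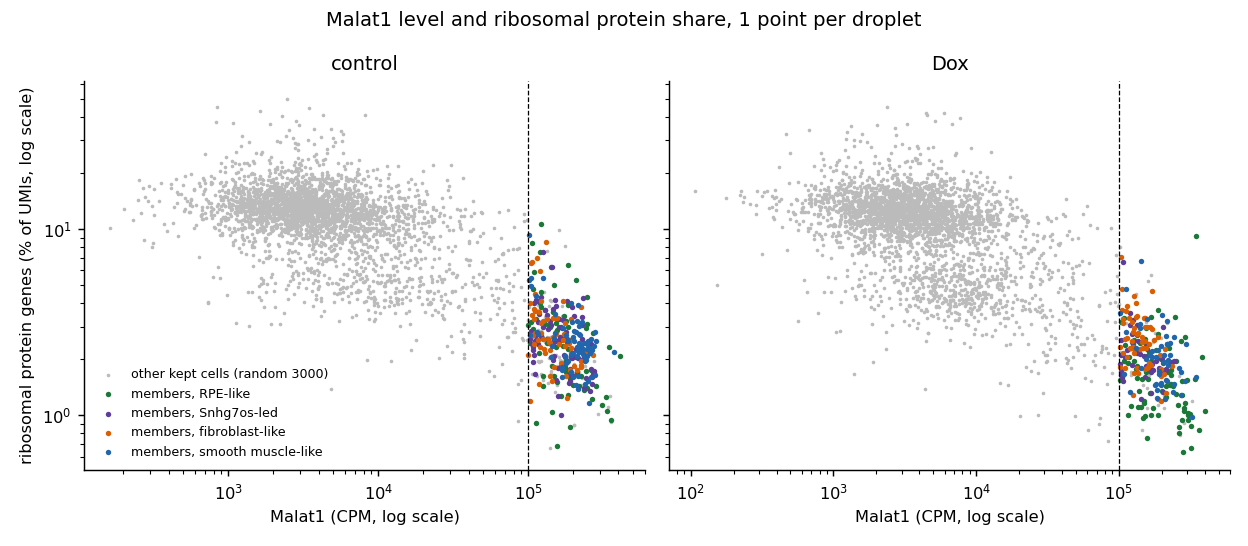
Malat1 level (CPM, log scale) against the share of UMIs from ribosomal protein genes (percent, log scale), 1 point per droplet, in the control and the Dox library; coloured points are the 306 and 250 members by cluster, grey points a random 3000 other kept cells per library, and the dashed line marks 100000 CPM. The members continue the downward slope of the grey points, and grey points right of the line are Malat1-rich cells that passed a limit on another gene.

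Members were shallow droplets. Their median was 1661.5 UMIs (5th to 95th percentile 912 to 3296) and 886 genes in the control library and 1827.5 UMIs (849 to 3797) and 956 genes in the Dox library. Other kept cells had medians of 4542 and 5047 UMIs and of 1887 and 2031 genes. The deepest member had 10469 UMIs in the control and 12675 in the Dox library. After every cell was thinned to 500 UMIs, members showed a median of 330 and 332 genes against 363 and 359 in other cells, so that most of the difference in detected genes went with depth.

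Their RNA was poor in transcripts of the cytoplasm and rich in lncRNAs and in transcripts of genes for speckle and splicing proteins. Ribosomal protein genes gave a median of 2.47% of UMIs in control members and 1.94% in Dox members, against 12.1% and 11.5% in other cells. Malat1 itself, used in the choice, was 17.2% and 16.2% against 0.393% and 0.382%. Among UMIs other than those of Malat1, further lncRNAs took 5.67% and 5.4% in members and 2.36% and 2.23% elsewhere. Of these UMIs, 3 annotated lncRNAs that overlap rRNA took 3.86% and 3.53% in members and 1.6% and 1.48% elsewhere. A list of 24 genes for speckle and splicing proteins took 1.63% and 1.62% of UMIs against 0.512% and 0.485%. Mitochondrial transcripts had medians of 2.47% and 1.92% against 1.43% and 1.33%, with single members from 0.074% to 18.1%. Malat1-rich cells that the limits on Rpe65, Dcn, Pmel or the muscle genes had removed looked alike in this respect, with medians for ribosomal protein genes of 1.15% to 3.03%.

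Across genes the members differed widely from all other kept cells. Among 14546 genes with 50 or more UMIs in each library, members and other cells together, 3540 were higher in members by 2-fold or more in both libraries (24.3%) and 1568 lower (10.8%), and the median log2 ratio of all genes was 0.34 in the control and 0.38 in the Dox library. Higher genes were 69.3% of the calls. That split depends on the scale. Leaving Malat1 UMIs out of the total adds 0.27 and 0.28 to the log2 ratio of every other gene and gives 4511 higher and 986 lower (82.1% higher). Centring on the median of all genes gives 2432 and 2446 (49.9%). Averaging the CPM of each droplet gives 2607 and 2225 (54.0%), and other cells limited to the depth of the members gives 1260 and 1158 of 9625 genes (52.1%).

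The 15 genes with the highest ratios included 5 lncRNAs. Neat1, the scaffold of paraspeckles, stood at 1630 CPM (1526 to 1738) in control members and 1176 (1084 to 1274) in Dox members against 66.0 and 46.5 in other cells, a log2 ratio of 4.63 (4.53 to 4.72) and 4.66 (4.54 to 4.78). It lies next to Malat1 on the minus strand of chromosome 19 (Neat1 at chr19:5824708-5845478, Malat1 at chr19:5795690-5802672, mm10). Gm26917, an annotated lncRNA at chr17:39843013-39846341, stood at 5429 and 6475 CPM against 151 and 167, log2 5.16 and 5.27. It was seen in 83.0% and 83.6% of members and in 5200 of 19883 control and 3800 of 15188 Dox cells outside the group, which were deeper. Lncpint (152 and 222 CPM against 11.1 and 10.9) and Snhg7os (97.0 and 60.4 against 6.78 and 1.98), with Malat1, were the remaining lncRNAs. Lncpint overlaps 2 genes of the opposite strand.

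The other 10 genes were protein-coding, with genomic spans from 15907 bases (Slc4a3) to 384821 bases (Cacnb2). Cacnb2, a subunit of voltage-gated calcium channels, had 101 and 109 CPM in members against 2.61 and 2.13, the highest ratio of all (log2 5.27, 4.83 to 5.68, and 5.68, 5.23 to 6.11). Myom1, a sarcomere protein, had 162 and 107 CPM against 6.22 and 3.98. Lama5, a basement membrane laminin chain, had 176 and 123 against 6.1 and 4.3. Filip1, Gucy2f, Dnah7b, Adamts9, Chsy3, Dgkg and Slc4a3 followed with log2 ratios of 3.77 to 4.95. Several of these are led by 1 cluster of members, given further on.

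The 10 lowest ratios included genes of fibroblasts and of antigen-presenting cells. Beside Dcn, used in the choice, they were Mgp, a matrix protein (307 and 278 CPM against 2999 and 2856), Serpinf1 (102 and 74.0 against 866 and 787), Igfbp6, Mfap5, Itm2a, Cd34 and 3 genes that form and chaperone MHC class II molecules. These 3, H2-Ab1, H2-Eb1 and Cd74, had log2 ratios of -3.17 to -4.24 in the control and -3.45 to -3.78 in the Dox library. Of a list of 7 antigen-presenting cell genes that could be compared, 6 were lower and 0 higher. The 10.8% of all genes that were lower is the share to set beside this.

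Lists of nuclear lncRNAs, of speckle and splicing genes and of cytoplasmic transcripts separated clearly. Of 11 nuclear lncRNAs other than Malat1 that could be compared, 8 were higher in members and 1, Mirg, was lower on 1 UMI per library (list median log2 2.86 and 2.46, all genes 0.34 and 0.38). Kcnq1ot1, an imprinted antisense lncRNA, had 526 and 588 CPM against 41.5 and 41.4, and Meg3 had 312 and 236 against 85.0 and 73.7. Without Malat1 the list summed to 8189 CPM in control and 8802 in Dox members, of which Gm26917 gave 5429 and 6475. Gm26917 is also on a list of 3 genes overlapping rRNA, with Gm42418 and AY036118. Summed UMIs of that list had log2 ratios of 1.0 and 0.97. How much of the Gm26917 count came from rRNA was not tested. Of 24 speckle and splicing genes, 18 were higher and 0 lower (median 1.58 and 1.64). These genes are grouped by where their proteins act, and the place of their mRNAs in the cell was not measured. Their spans ran from 3194 bases (Srsf2) to 58137 (Luc7l2), and ratios also went with gene length, as given further on. Nktr, a cyclophilin of speckles, had 714 and 613 CPM against 80.4 and 77.2. Tra2a, a splicing activator, had 612 and 514 against 92.0 and 80.9, and Srrm2, a core speckle protein, had 1457 and 1673 against 389 and 373. Ddx5, Hnrnpa2b1, Rbm39, Srrm1, Srsf2 and Srsf6 did not reach 2-fold in both libraries, with log2 ratios of 0.39 to 1.18.

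Transcripts of the cytoplasm were lower. Of 83 ribosomal protein genes, 81 were lower by 2-fold or more and 0 higher (median log2 -2.00 and -2.18). Of 15 housekeeping genes, 12 were lower and 0 higher, among them Eef1a1, the elongation factor that brings tRNA to the ribosome (1330 and 1235 CPM against 4367 and 4083), Tpt1, Actb and Tmsb4x (372 and 224 against 1561 and 1403). The 13 mitochondrially encoded genes did not reach 2-fold in both libraries (median 1.01 and 0.65). Immediate early genes, which respond to stress and dissociation, were split. Fosb was higher, at 1448 and 1367 CPM against 431 and 497, and 5 of 15 were lower, among them Zfp36 (1806 and 1823 against 5159 and 4764) and Junb (3289 and 3591 against 7645 and 7196). The stress and signalling lists had shares of called genes that are to be set beside the 24.3% higher and 10.8% lower of all genes. Heat shock genes had 0 of 10 higher and 3 lower, with Hspb1 at 171 and 216 CPM against 770 and 790. Targets of p53 had 6 of 24 higher and 3 lower, with a log2 ratio of summed UMIs of -0.22 and -0.1, which turns to 0.05 and 0.18 without Malat1 UMIs in the total. Interferon-response genes had 2 of 28 higher and 8 lower.

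The ratio followed the length of the gene. For 13445 protein-coding genes, split into 4 equal groups by genomic span in GENCODE vM21, the median log2 ratio was -0.53 (control) and -0.55 (Dox) in the shortest group (up to 10395 bases), 0.07 and 0.09 in the next, 0.51 and 0.54 in the third, and 1.15 and 1.14 in the longest (58846 bases and over). The share of genes higher by 2-fold went from 8.54% to 14.7%, 25.5% and 46.4% over the same groups, beside 24.3% of all genes. Spearman's rho across genes was 0.46 with span and 0.55 with exonic length (13445 genes, which share the same droplets and are not independent). Among the 1068 lncRNAs compared, 31.8% were higher, and among protein-coding genes 23.8%.

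**Figure D2:**
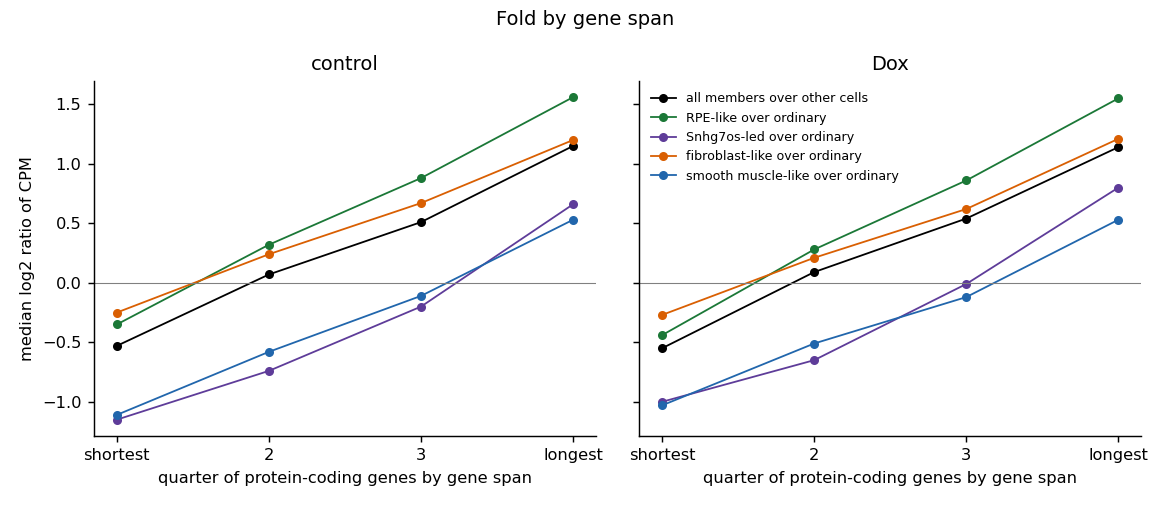
Median log2 ratio of CPM for protein-coding genes in 4 equal groups of genomic span, from shortest to longest, in the control and the Dox library; black gives all members over all other kept cells, colours give each cluster of members over its ordinary counterpart. All 5 lines rise from the shortest to the longest group in both libraries, the black one from -0.53 to 1.15 in the control library.

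Which cell types the droplets came from was read by clustering the 556 members without Malat1, without the other genes of the choice and without mitochondrial genes. The number of clusters was 4, all with droplets of both libraries. Names rest on fixed marker lists that hold none of the genes of the choice. A cluster's own markers are part of how it was formed, and are given as description. The share of all genes at least 2-fold above the other members is not given for the clusters. Beside its own list, each cluster had 0 markers of the other RPE, melanocyte, fibroblast and smooth muscle lists at that level, except Abcc9 in the third cluster. Among further lists the highest count was 4 of 12 Schwann markers, in the second cluster. Levels of the genes of the choice took no part in the clustering but were cut by the rule. The ordinary cells, which are not members, were defined by the same genes. Both therefore stand beside the markers as description only. Ordinary cells were kept cells under the Malat1 limit and over 1 of the other limits: 2556 Rpe65-high, 1868 Pmel-high, 19769 Dcn-high and 873 muscle-gene-high cells.

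The largest cluster was RPE-like, although the rule was set to leave out the RPE. It held 170 droplets, 30.6% of members (26.8 to 34.6), 79 of 306 in the control and 91 of 250 in the Dox library. Of 14 RPE markers, 7 were at least 2-fold above the other members. Trpm3, a cation channel gene active in the RPE, had 4725 CPM here, 239 to 501 in the other clusters and 1167 in ordinary Rpe65-high cells. Otx2, a transcription factor of RPE identity, had 653 CPM, 57.5 to 94.5 in the other clusters and 425 in ordinary Rpe65-high cells. Both were thus above the level of ordinary RPE cells. Markers of the visual cycle and transport were below it, in a comparison with cells taken for high Rpe65, as with Rgr (3793 CPM against 12309), Rdh10 (493 against 772), Slc16a8, a lactate transporter (922 against 1503), and Lrat (548 against 1243).

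Rpe65, held under 10 UMIs by the choice, was still highest in this cluster, at 2295 CPM (2145 to 2452) against 727 in other members. In CPM the limit was loose for shallow droplets, and single members reached 9416 CPM of Rpe65 in the control and 7692 in the Dox library. The 10 leading genes of the cluster were Tspoap1, Rpgrip1, H2-M5, Gm3764, Tmem108, Six3os1, Gm534, Shroom3, Igf2bp1 and Col4a3. Of these, 8 were highest in Rpe65-high cells among 8 kinds of ordinary cells. Col4a3, a basement membrane collagen chain, had 616 CPM against 82.2 in ordinary Rpe65-high cells, and Rpgrip1, a ciliary protein, 298 against 35.4. Six3os1 was highest in cells with endothelial markers and Shroom3 in cells with Schwann markers.

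The remaining RPE transcripts separated the clusters less or not at all. Rdh5 had 1444 CPM in the RPE-like cluster and 668 to 801 in the other 3, and Rlbp1, a retinoid carrier, 911 against 452 to 474. Ttr, the secreted carrier of thyroxine and retinol that is abundant in the RPE, had 11771 CPM in the RPE-like cluster and 9079 to 10064 in the other 3, against 74518 in ordinary Rpe65-high cells and 2857 in ordinary Dcn-high cells. Ptgds had 13233 against 10103 to 13342, and Mt3 470 against 398 to 469. The RPE-like droplets thus had a small excess of Ttr over droplets of the other clusters and much less than ordinary RPE cells. How far free RNA set these levels was not tested.

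The second cluster, of 133 droplets (23.9%, 20.4 to 27.7; 86 control and 47 Dox), was led by Snhg7os, an antisense lncRNA at chr2:26640372-26645944. All 86 Snhg7os UMIs of members were in this cluster, in 32 of 86 control droplets (37.2%, 27.0 to 48.3) and 15 of 47 Dox droplets (31.9%). The other clusters had 0, which allows up to 4.56% of the 79 control RPE-like droplets. Dock3, a guanine nucleotide exchange factor at chr9:106892825-107231909, was found in 17 and 8 droplets of the cluster, in 1 RPE-like droplet of each library and in 0 of the other members. Among ordinary cells, which are not members, Snhg7os was most frequent in Pmel-high cells (9.08% of control and 6.71% of Dox cells) and below 2% in Rpe65-high, Dcn-high and muscle-gene-high cells. Snhg7os and Dock3, which came with the description of these droplets, thus belonged to 1 cluster and not to the members at large. Malat1 was found in every member by choice, and Gm26917 in members of all clusters.

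All 12 melanocyte markers were at least 2-fold higher in the Snhg7os-led cluster than in other members. Dct, a melanin-synthesis enzyme, had 8586 CPM against 1351 to 1898 in the other clusters, and Tyr, tyrosinase, 969 against 94.5 to 355. Ednrb, the endothelin receptor of melanocytes, had 889 against 120 to 241. Pmel, kept under 3000 CPM by the choice, had 1849 CPM (1676 to 2035) against 638 in other members. Ordinary Pmel-high cells, taken for high Pmel, had more of 8 of the 12 markers (Dct 16305 CPM, Mlana 8032 against 1248), but Kit, the receptor of stem cell factor, was 106 CPM in the cluster and 63.9 in ordinary Pmel-high cells. All 10 leading genes, among them Pax3, a transcription factor of the melanocyte lineage (292 CPM against 91.3), and Scn8a (495 against 217), were highest in Pmel-high cells among the ordinary cells. The cluster was left without a cell type name, under a rule that asks for a fixed marker among the 10 leading genes or a minimum depth. No fixed marker was among them, as in the RPE-like and smooth muscle-like clusters. The cluster's median depth in the Dox library, 0.328 of the library's, was just under that minimum. The other clusters lay between 0.348 and 0.374 in both libraries. The missing name is no measure of the markers. Melanocyte markers placed 71.4% of the droplets in the matching class, against 35.9% to 69.5% in the named clusters. The Schwann markers Sox10 and Cdh19 were also at least 2-fold higher here than in other members.

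The third cluster, fibroblast-like, held 128 droplets (23.0%, 19.6 to 26.7; 65 control and 63 Dox). Of 17 fibroblast markers, 13 were at least 2-fold higher than in other members. Col1a1, the main collagen chain of the sclera, had 994 CPM against 13.2 to 35.4 in the other clusters and 639 in ordinary Dcn-high cells, and Pdgfra, a growth factor receptor, 304 against 0 to 10.4, and 197 in Dcn-high cells. Secreted matrix genes did not share 1 direction against ordinary cells, which had been taken for high Dcn. Col1a2, like Col1a1, was above them, at 710 against 615. Mgp was below, at 632 against 4634, as were Lum at 390 against 1993 and the secreted Serpinf1 at 283 against 1368. Dcn, limited by the choice, had 780 CPM (673 to 899) against 342 in other members. Of the 10 leading genes 8, among them Fbn2, Itgbl1 and Egfr, were highest in ordinary Dcn-high cells. Tnfaip6 and Icam1, which respond to inflammatory signals, were highest in cells with Schwann and endothelial markers.

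The last cluster, smooth muscle-like, held 125 droplets (22.5%, 19.1 to 26.2; 76 control and 49 Dox). Of 12 markers of smooth muscle and pericytes, 7 were at least 2-fold higher than in other members. Rgs5, a regulator of G-protein signalling in mural cells, had 10974 CPM against 75.2 to 431 in the other clusters and 9111 in ordinary muscle-gene-high cells, and Notch3 452 against 5.22 to 73.9, and 355 there. Contractile genes were lower than in ordinary cells, which the limit on Acta2, Tagln and Myh11 had placed on the high side, with Myl9 at 496 against 8418 and Cnn1 at 43.9 against 362. Myh11, smooth muscle myosin, had 2791 CPM (2578 to 3016) against 39.9 in other members, although it was 1 of the 3 genes limited together. All 10 leading genes were highest in muscle-gene-high cells among the ordinary cells. They included Cacnb2 (478 CPM against 4.69 in other members), Myom1 (623 against 5.86) and Dgkg (404 against 2.35), so that these 3 of the 15 highest ratios of members over other cells were led by this cluster.

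**Figure D3:**
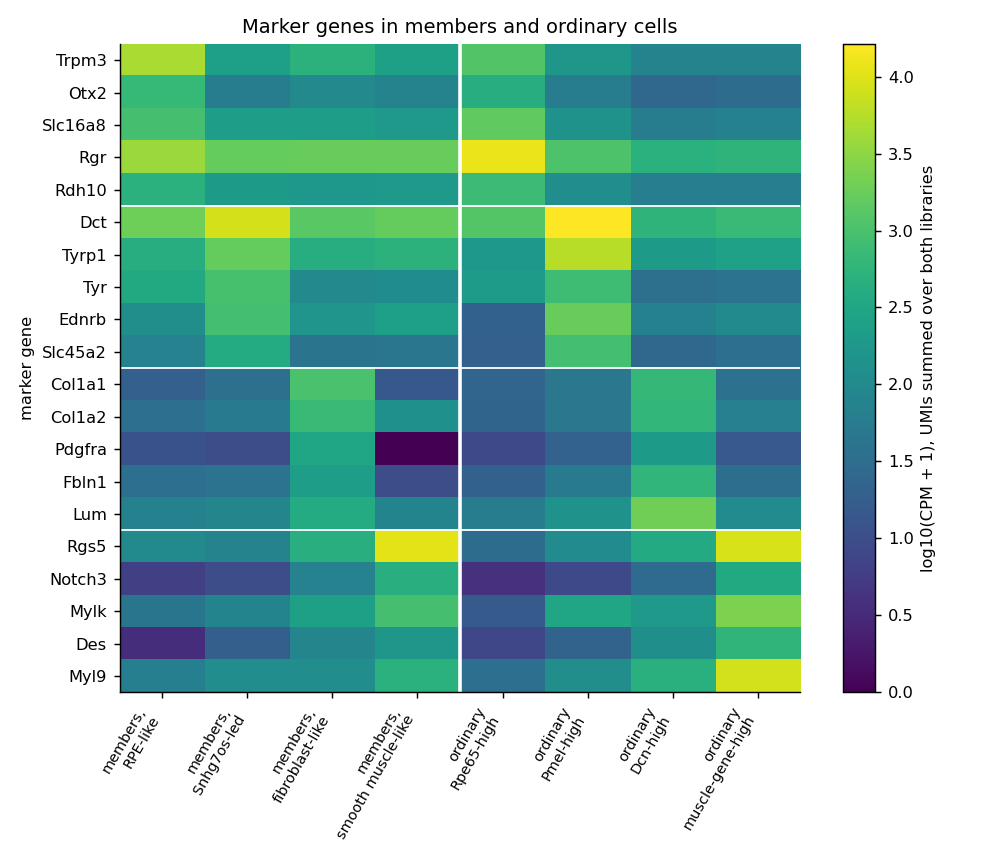
Level of 5 genes from each of the RPE, melanocyte, fibroblast and smooth muscle lists (picked for display after their values were known), as log10(CPM + 1) of UMIs summed over both libraries, in the 4 clusters of members (left of the white line) and in 4 kinds of ordinary cells (right). Each block of 5 genes is brightest in 1 cluster and in its ordinary counterpart, with Trpm3 brighter in the RPE-like members (4725 CPM) than in ordinary Rpe65-high cells (1167) and Myl9 dimmer in the smooth muscle-like members (496) than in muscle-gene-high cells (8418).

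Over 674 genes, the log2 ratio of each cluster over the other members went with the ratio of its counterpart over the other ordinary cells. Pearson's r was 0.84 for RPE-like with Rpe65-high, 0.78 for Snhg7os-led with Pmel-high, 0.82 for fibroblast-like with Dcn-high and 0.78 for smooth muscle-like with muscle-gene-high. With every other kind of ordinary cell it was 0.36 or lower. These are correlations across genes that share the same libraries, and are given as description.

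Droplet by droplet the assignment was less sharp. With at least 2 marker genes of a list required, 126 members (22.7%) were placed by melanocyte genes, 103 (18.5%) by fibroblast genes, 79 (14.2%) by RPE genes and 59 (10.6%) by smooth muscle and pericyte genes. Macrophage genes placed 14, Schwann genes 11, endothelial genes 6, and antigen-presenting, NK or T, mast cell or neutrophil and photoreceptor genes 2 each. The remaining 150 (27.0%) reached no list. The markers placed 71.4% of the Snhg7os-led, 69.5% of the fibroblast-like, 45.6% of the smooth muscle-like and 35.9% of the RPE-like droplets in the matching class. A further count found 101 droplets (18.2%) past the minimum for more than 1 list. No doublet caller was run, and the part of doublets and of free RNA in these droplets was not tested.

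The clusters took these shares of each library. Of control members 25.8% (21.0 to 31.1) were RPE-like, 28.1% (23.1 to 33.5) Snhg7os-led, 21.2% (16.8 to 26.3) fibroblast-like and 24.8% (20.1 to 30.1) smooth muscle-like. Of Dox members the shares were 36.4% (30.4 to 42.7), 18.8% (14.2 to 24.2), 25.2% (19.9 to 31.1) and 19.6% (14.9 to 25.1). Ordinary counterparts differed as well, with 1210 control and 1346 Dox Rpe65-high cells and 1376 and 492 Pmel-high cells. Since the limits removed Malat1-rich cells of each type in unequal numbers, and melanocyte genes also differed in level between the libraries, no change in the make-up of the members is read from these shares.

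Each cluster was also compared with its ordinary counterpart, to reduce the difference in the mix of cell types. The match is partial, since markers placed 35.9% to 71.4% of a cluster's droplets in the matching class. RPE-like members against ordinary Rpe65-high cells had 30.8% of 10947 genes higher by 2-fold in both libraries and 8.82% lower. Snhg7os-led members against Pmel-high cells had 11.4% of 3948 higher and 18.2% lower. Fibroblast-like members against Dcn-high cells had 26.9% of 12907 higher and 7.74% lower, and smooth muscle-like members against muscle-gene-high cells had 10.9% of 4417 higher and 19.1% lower. The pairs differ in depth, with ordinary Rpe65-high cells at medians of 18174 and 20725 UMIs and ordinary Pmel-high cells at 1532 and 1230, close to the members.

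Of 3164 genes that could be compared in all 4 pairs, 129 (4.08%) were higher and 90 (2.84%) lower by 2-fold in every pair and library. That balance depends on the scale and depth. Without Malat1 UMIs 185 were higher and 20 lower, and after thinning every cell to 500 UMIs 3 were higher and 20 lower of the 342 genes that could still be compared. The higher genes as first counted held 4 of the 25 lncRNAs compared, of which Malat1 is fixed by the choice and the others were Neat1, Gm26917 and Kcnq1ot1. Neat1 had 864 CPM in RPE-like, 3048 in Snhg7os-led, 912 in fibroblast-like and 1255 in smooth muscle-like members, against 29.1, 209, 37.7 and 53.6 in their counterparts. Gm26917 went from 891 CPM in smooth muscle-like and 2476 in fibroblast-like members to 4711 in Snhg7os-led and 11831 in RPE-like members, against 81.9, 72.8, 297 and 143. Kcnq1ot1 had 754, 248, 809 and 255 CPM in the same order as Neat1, against 30.9, 35.5, 40.6 and 22.3, and shares its position with Kcnq1 on the opposite strand. Neat1, Gm26917 and Kcnq1ot1 thus stood higher in each cluster than in its counterpart, at differing sizes.

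Of the 23 speckle and splicing genes compared in all pairs, 10 were higher in each. Tra2a had 298 to 750 CPM in the 4 clusters against 45.1 to 112, Sfpq, a paraspeckle protein, 428 to 535 against 56.3 to 113, and Nktr 369 to 841 against 64.4 to 146. Further genes with the highest ratios included Zcchc7, Syne2 (a nuclear envelope spectrin repeat protein), Asxl2 and Leng8. The lower genes held 23 of 81 ribosomal protein genes. They also held Sumo2, at 80.9 to 145 CPM against 272 to 527, Tomm7, a subunit of the mitochondrial import complex, at 86.2 to 110 against 347 to 387, and Sec61g, of the translocon of the endoplasmic reticulum, at 75.2 to 156 against 375 to 580.

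The lists kept their direction in each cluster for speckle and ribosomal protein genes. Speckle and splicing genes were higher in 21 of 24 (RPE-like), 19 of 23 (Snhg7os-led), 15 of 24 (fibroblast-like) and 11 of 24 (smooth muscle-like), with 0 lower. Ribosomal protein genes were lower in 27 of 82, 74 of 81, 82 of 83 and 81 of 81, with 0 higher. In RPE-like members the log2 ratio of their summed UMIs was -0.9 (-0.95 to -0.86) in the control and -1.34 (-1.38 to -1.29) in the Dox library, smaller in size than the -2.12 and -2.25 of fibroblast-like members. Ordinary Rpe65-high cells themselves gave only 4.6% and 4.29% of their UMIs to ribosomal protein genes, against 13.1% and 12.5% in ordinary Dcn-high cells.

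Immediate early genes differed in direction between the pairs. Their summed UMIs were higher in RPE-like members, log2 1.42 (1.36 to 1.49) in the control and 1.98 (1.92 to 2.03) in the Dox library, and in Snhg7os-led members, 0.82 and 1.21. They were lower in fibroblast-like members, -0.54 and -0.42, and in smooth muscle-like members, -0.8 and -0.7. The levels of the members themselves ran from 10911 CPM (RPE-like, control) to 42429 (fibroblast-like, Dox), and those of the counterparts from 3300 to 56910, so that members differed among themselves less than the ordinary cells did. Mitochondrial genes were higher in fibroblast-like (1.09 and 1.12) and smooth muscle-like members (1.11 and 1.09). In RPE-like members they gave 0.49 and -0.25 and in Snhg7os-led members 0.21 and -0.09, and these values change sign with the scale, to -0.36 and -0.04 in the control library after thinning and to 0.09 and 0.13 in the Dox library without Malat1 UMIs.

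**Figure D4:**
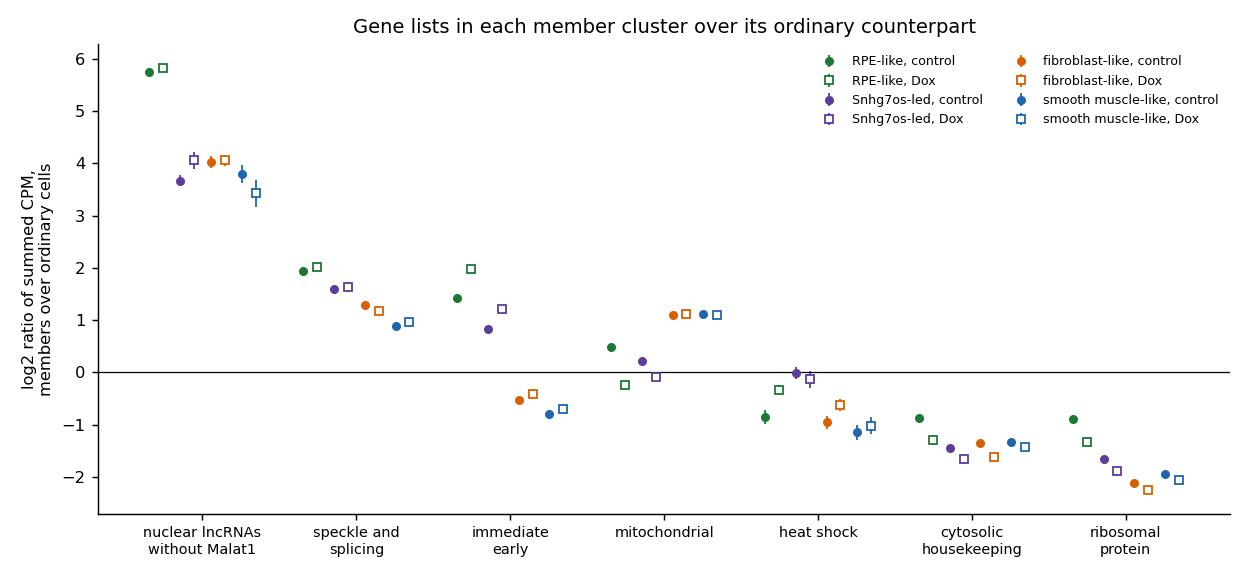
Log2 ratio of the summed CPM of 7 gene lists, each cluster of members over its ordinary counterpart, in the control (filled circles) and the Dox library (open squares), with exact 95% intervals of counting error. Nuclear lncRNAs without Malat1 and speckle genes lie above 0 and housekeeping and ribosomal protein genes below 0 in all 4 clusters, immediate early genes lie above 0 in RPE-like and Snhg7os-led members (1.42 and 0.82 in the control) and below 0 in the others, and the mitochondrial values of those first clusters change sign with the scale. Gm26917, also listed as overlapping rRNA, gave 11713 of the lncRNA list's 13627 CPM in control RPE-like members and 1023 of 3192 in control smooth muscle-like members.

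Length of the gene separated ratios within each pair too. From the shortest to the longest group of genes the median log2 ratio in the control library went from -0.35 to 1.56 in RPE-like, -1.15 to 0.66 in Snhg7os-led, -0.25 to 1.2 in fibroblast-like and -1.11 to 0.53 in smooth muscle-like members. Spearman's rho with span was 0.48, 0.55, 0.39 and 0.5. With exonic length it was larger in each pair, at 0.59, 0.66, 0.45 and 0.58. The direction was the same in the 4 pairs, in which cell type was matched only as far as the clusters and the genes of the choice allow.

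Dox and control members differed in few genes. Of 7530 genes with 20 or more UMIs over both libraries' members, 190 (2.52%) were higher by 2-fold in Dox members and 240 (3.19%) lower, and the median log2 ratio was 0.0. Most of these rest on low counts, since with 50 or more UMIs 28 were higher and 59 lower. Serpina3n, a secreted protease inhibitor of the acute phase, had 51.1 CPM (34.3 to 73.5) in control and 271 (228 to 320) in Dox members, log2 2.4 (1.82 to 3.03), and was found in 8.5% and 34.8% of droplets. In all other kept cells it went from 59.7 to 507 CPM, log2 3.09. In the 4 clusters it had 236 to 307 CPM in the Dox library, so that no cluster stood out.

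A2m, the protease inhibitor alpha-2-macroglobulin, had 217 CPM in control and 647 in Dox members, log2 1.58 (1.27 to 1.89), against 79.0 and 316 in other cells. It was highest in RPE-like members, at 620 and 1187 CPM, and 1 control droplet held 45 of its 123 UMIs. Without the richest droplet of each library the log2 ratio was 2.02. Gm42047 (14.1 and 111 CPM) and Nuak2, a stress-responsive kinase (17.6 and 79.8), were further large differences upward. Other cells had 1.45 and 5.19 CPM of Gm42047 and 11.9 and 16.3 CPM of Nuak2.

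The largest differences downward came from few droplets. S100a9 and S100a8, calcium-binding proteins of neutrophils, had 110 and 73 UMIs in the control library and 0 in the Dox library, but the 110 UMIs lay in 2 droplets and the 73 in 4. Iglv1, an immunoglobulin light chain segment, had 64 and 0 UMIs, from 9 control droplets, and other cells had 55.8 and 0.696 CPM. Ccl5, a T cell chemokine, had 98 UMIs in 9 control droplets, 47 of them in 1, and 11 UMIs in 3 Dox droplets. Tyrobp, an adaptor of myeloid receptors, had 52 and 6 UMIs, from 27 and 5 droplets. A count of 0 in the Dox members allows up to 7.18 CPM. Except for Tyrobp, these falls rest on 9 droplets or fewer of the control library. In all other kept cells S100a9 differed little, with 13.9 and 12.8 CPM.

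Targets of p53, the transcription factor that answers DNA damage, had a list median near that of all genes. Of 18 that could be compared, beside 2.52% higher and 3.19% lower of all genes, Aen was higher (12.3 and 29.2 CPM, on 7 and 15 UMIs, with a log2 interval of -0.14 to 2.78) and 0 lower, and the list median was 0.07, beside 0.0 for all genes. Cdkn1a, the cell cycle inhibitor p21, had 289 CPM in control and 271 in Dox members, log2 -0.1 (-0.43 to 0.24). Mdm2, the ligase that degrades p53, had 70.5 and 72.1, log2 0.03 (-0.65 to 0.71). Ccng1, cyclin G1, had 37.0 and 66.2, log2 0.84 (0.01 to 1.7), and other cells 37.9 and 55.2. Mdm2 rests on 40 and 37 UMIs, and differences inside that interval were not detectable at this depth. The clusters varied around these values. Cdkn1a had 225 CPM in control and 501 in Dox fibroblast-like members, log2 1.15 (0.48 to 1.86), and 626 and 474 in smooth muscle-like members, -0.4 (-0.95 to 0.14). The log2 ratio of the list's summed UMIs was 0.43 (0.18 to 0.68) in RPE-like and -0.32 (-0.59 to -0.06) in Snhg7os-led members, and 0.01 (-0.1 to 0.13) in all members. Of 16 interferon-response genes compared, with the same shares over all genes, Gbp3 was higher (19.4 and 44.8 CPM) and Ifi27l2a lower (77.6 and 37.0), with a list median of 0.22.

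Marker lists of pigment cells differed between the libraries in members as in other cells. The 12 melanocyte genes had a log2 ratio of summed UMIs of -0.88 (-0.95 to -0.8) in members and -1.13 in other cells, and 14 RPE genes had 0.42 (0.39 to 0.45) and 0.43. The melanocyte list was -0.11 (-0.22 to -0.01) within the Snhg7os-led cluster and -0.96 to -1.37 in the other 3. Dct followed the same order, with 9007 and 7828 CPM in Snhg7os-led members and 2699 and 1253 in RPE-like members. Ttr went from 6371 to 12114 CPM in fibroblast-like members and from 10091 to 13122 in RPE-like members. Both lists thus differed most in the clusters that did not carry them as their own markers. The part of free RNA in this was not tested.

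Malat1, Gm26917 and the summed speckle and splicing list differed little between the libraries over all members. Neat1, Meg3 and Lncpint differed more. Meg3 had 312 CPM in control and 236 in Dox members, and Lncpint had 152 and 222. In members Malat1 gave a log2 ratio of 0.06 between Dox and control, Gm26917 0.25 (0.18 to 0.33) and the summed speckle and splicing list -0.02 (-0.07 to 0.02). By cluster Gm26917 had 11713 CPM in control and 11926 in Dox RPE-like members, and 4606 and 4900 in Snhg7os-led members. Fibroblast-like members had 2280 and 2667, and smooth muscle-like members 1023 and 712. RPE-like droplets, richest in Gm26917, were 25.8% of control and 36.4% of Dox members, so its ratio over all members mixes level and share. Neat1 was lower in Dox members, -0.47 (-0.62 to -0.32), by about as much as in other cells (-0.51). Within clusters Neat1 ranged from -0.02 (-0.34 to 0.3) in RPE-like to -0.81 (-1.19 to -0.44) in smooth muscle-like members. Ribosomal protein genes had -0.32 (-0.35 to -0.28) in members and -0.14 in other cells, and mitochondrial genes -0.37 (-0.4 to -0.34) and 0.0. Both differences were largest in RPE-like members, at -0.55 (-0.61 to -0.48) for ribosomal protein and -0.74 (-0.8 to -0.69) for mitochondrial genes. The other clusters had -0.17 to -0.25 and -0.1 to -0.26. Malat1 stood at 187435 CPM in control and 217342 in Dox RPE-like members.

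**Figure D5:**
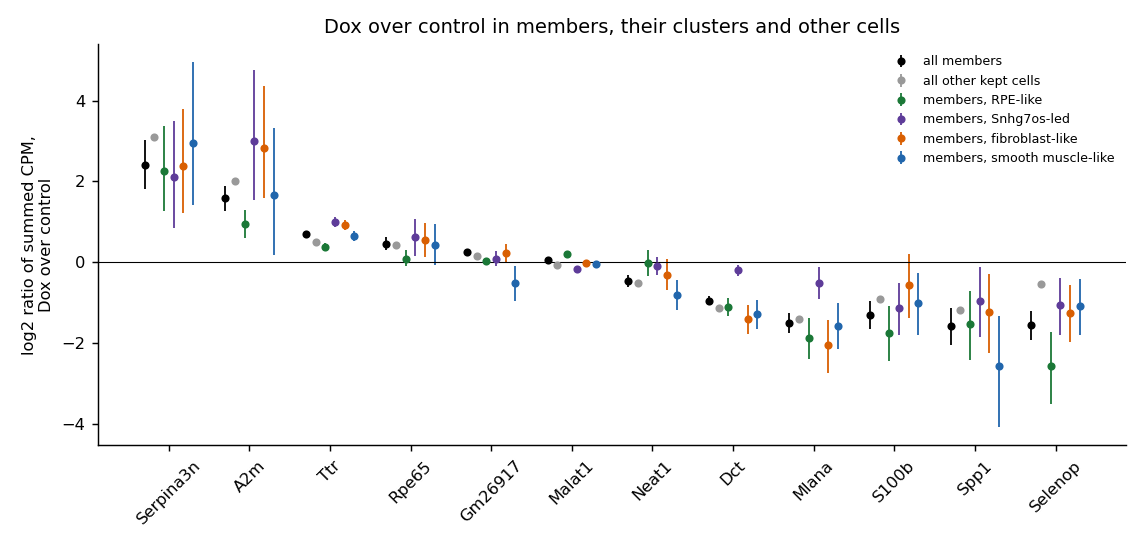
Log2 ratio of summed CPM, Dox over control, for 12 genes (picked for display after their values were known) in all members, all other kept cells and the 4 clusters, with exact 95% intervals of counting error. Serpina3n and A2m lie above 0 in each group of cells, and Dct lies near 0 in the Snhg7os-led members (-0.2) and at -0.95 or below in the other groups.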

How the data were processed

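Single-cell 5′ libraries of dissociated RPE, choroid and sclera were sequenced, 1 for control and 1 for Dox mice. The UMI counts per gene and barcode were deposited by the authors as filtered matrices of 32285 genes, made with Cell Ranger 4.0.0 on mm10 per the file headers and the submitters' processing notes; the annotation release is not given in the sources used here. Suspensions had passed a dead cell removal step, which acts on the share of damaged cells before loading.

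Members, markers and gene lists were chosen with earlier results of these data known. Kept cells had over 500 UMIs, 200 to 6000 genes and a mitochondrial share under 0.2. The upper gene limit was the only step against doublets, and no doublet caller was run. UMIs were summed over cells and given as CPM with exact Poisson, Clopper-Pearson or conditional binomial 95% intervals. Calls and list medians used log2 ratios with 0.5 counts added, and ratios printed with intervals had none added. A gene was compared with 50 or more UMIs per library over both groups of cells (20 over both libraries between conditions) and called at 2-fold, in both libraries where each gave a ratio. No test was run, since each condition had 1 library of pooled mice. Members were clustered with scanpy 1.11.5 (python-igraph 0.11.9; 2000 variable genes, 15 principal components, 15 neighbours, resolution 0.3) without the genes of the choice. For same-type comparisons these clusters and ordinary cells defined by the genes of the choice took the place of the marker classes planned at first. The ribosomal protein list holds 85 genes, without ribosomal protein kinases. Named genes were the 4 given with the group, the 15 highest and 10 lowest ratios among called genes with 50 CPM or more in each library, list members, the 10 leading genes of each cluster, and the 5 largest rises and falls between conditions among genes with 50 CPM in a library and 50 UMIs. Gene spans and overlaps came from GENCODE vM21, which matched 32235 of the 32285 genes. Scripts ran under Python 3.11.15, with intervals from scipy 1.17.1, and the calculations were tested on simulated counts. Strand, gene overlaps and shared sequence in the counting could affect Gm26917, Gm42418 and antisense genes. Some genes that the naming rule picked are not reported here.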

Additional observations from a re-analysis of the deposited data

How the results depend on the processing

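Each condition had 1 library, and Malat1-rich droplets are shallow, so small differences between genes at under about 50 UMIs could not be read. No paired analysis was possible because each condition had 1 library. Members made up 1.74% of control and 1.85% of Dox kept cells with Malat1 at 80000 CPM or more, 0.946% and 0.998% at 150000, 1.1% and 0.926% with fewer than 3 Rpe65 UMIs, and 0.243% and 0.615% with at most 1 UMI of Dcn, of Pmel and of the muscle genes. Genes higher than in other cells numbered 1260 against cells of like depth (fewer genes compared), and genes lower numbered 986 without Malat1 UMIs, 920 without Malat1 and mitochondrial UMIs, and 2446 after centring. Requiring 3 marker genes placed 6.29% of members by RPE, 12.8% by melanocyte and 6.83% by smooth muscle genes. Clusters in place of marker classes gave 30.6% RPE, 23.0% fibroblast and 22.5% smooth muscle, and Malat1 at 150000 CPM or more gave 14.2% fibroblast. With 50 or more UMIs, 28 genes were higher and 59 lower in Dox members (fewer genes compared). In all 4 same-type comparisons 3 genes were higher and 20 lower after thinning to 500 UMIs (342 genes compared), and 20 were lower without Malat1 UMIs. The p53 target list, at -0.22 and -0.1 against other cells, turned to 0.05 and 0.18 without Malat1 UMIs and to 0.09 and 0.21 without mitochondrial UMIs as well. The list of genes overlapping rRNA turned to -0.07 in the Dox library against cells of like depth, and in Snhg7os-led members to -0.15 (control) and -0.04 (Dox) after thinning. Mitochondrial genes turned to -0.36 in RPE-like and -0.04 in Snhg7os-led control members after thinning, and to 0.09 and 0.13 in the Dox library without Malat1 UMIs. The cause of these turns was not tested beyond the change in total. Of 320 values for single lists and genes, 101 stayed, 208 moved without a turn and 11 turned. Staying meant lying within the counting interval. For the 10 Dox over control ratios of single genes, it meant staying at 2-fold or more. Leaving out the richest droplet of each library for the named Dox genes, and clusters in place of the planned marker classes for the same-type comparisons, were chosen after seeing the data.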

Other observations

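At a higher clustering resolution, 7 clusters were found among the 556 droplets. The RPE-like droplets fell into a group of 139, nearly all RPE-like, with a median of 1513 UMIs, and a group of 32 with a median of 4081.5 UMIs, led by Cd52, Mab21l1 and Gm42047. That deeper group had A2m at 1707 CPM and held 11 control and 21 Dox droplets. Fibroblast-like droplets fell into 83, led by Tnfaip6, Ccl11, Hgf and other genes that include the chemokine Cxcl10 at 999 CPM, and 45, led by Adamtsl3 and Rian, with Col1a1 at 1481 CPM and Myoc, an extracellular protein of the outflow pathway, at 1284 CPM. A last group of 6 droplets, 5 control and 1 Dox, was led by Plek, Ctsb, Psap and Apoe, genes active in macrophages.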
